A study of Mus musculus with 2 samples.

Results

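Patrolling monocytes, also called nonclassical or Ly6C-low monocytes, are blood monocytes that crawl along the inner surface of vessels and clear debris and damaged cells. In mice they arise mainly from classical Ly6C-high monocytes, depend on the transcription factor Nr4a1 and on signalling through Csf1r, and carry high levels of the angiotensin-converting enzyme Ace, the adhesion receptor Adgre4 and the myeloid receptor Treml4. In the liver, monocytes can also give rise to macrophages, many of which make the complement C1q chains encoded by C1qa, C1qb and C1qc.

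Cells with this marker set were examined among CD45+ immune cells sorted out of liver lesions that MC38-LM3b tumor cells had formed in mice. MC38-LM3b was obtained from the colorectal cancer line MC38 by passage through the liver. For the Ctrl group the tumor cells expressed a scrambled hairpin RNA (shScramble), and for the KD group one that targets SLAMF3 (shSLAMF3), the SLAM receptor that the gene Ly9 encodes. The tumor cells were injected into the spleen of young adult C57BL/6 mice, which carried no hairpin themselves, and the liver lesions of 3 mice were pooled for the 1 library of each group. With 1 library a group no replicate error could be had and no test was run, and differences between the mice of a pool and between the libraries cannot be told apart from those between Ctrl and KD. All intervals below are 95% intervals for counting error only.

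The cells were selected on their UMI counts, so that the genes of the rule are a description and no result. A cell was taken when it had at least 1 UMI (unique molecular identifier, 1 counted RNA molecule) of 2 or more of Ace, Adgre4 and Treml4 and at least 1 UMI of Csf1r. It also had to have 0 UMIs of Ly6c2 (classical monocytes), Ltc4s, Cd3e (T cells), Cd79a (B cells), Flt3 (dendritic cells) and Clec4f (Kupffer cells, the resident macrophages of the liver). The summed level of the neutrophil genes S100a8 and S100a9 had to be under 30 UMIs per 10000. The rule found 119 of the 19999 cells that passed the cell filter, of 21359 deposited cells. There were 34 in Ctrl and 85 in KD, and they are called Ace/Adgre4/Treml4+ cells here. No barcode of these cells was shared between the libraries' selected cells, and 1 of them was also a barcode of another cell in the other library, of 27 barcodes that the libraries shared.

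With at least 2 of the 3 markers and Csf1r there were 136 cells in Ctrl and 249 in KD, of which 87 and 77 held a Ly6c2 UMI. A UMI of Ltc4s was found in 4 Ctrl and 60 KD candidates, and a UMI of Clec4f in 13 and 32. The S100a8 and S100a9 limit lay in a wide gap, since the highest selected cell had 4.69 per 10000 in Ctrl and 10.2 in KD, and the lowest cell it alone removed at the last step had 93.0 and 126.

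The selected cells were deeper in KD. They held a median of 5054 UMIs and 1847 genes in Ctrl (2223 to 21118 UMIs) and 7322 UMIs and 2468 genes in KD (2666 to 19837 UMIs), whereas the medians of all other filtered cells were 5416 and 4959 UMIs. Mitochondrial genes took a median of 1.33% and 1.70% of their UMIs. Summed over cells, the values below rest on 230178 UMIs in Ctrl and 699861 in KD, and levels are given as CPM (UMIs of a gene per 1e6 UMIs of the cell group). Ly9, the target of the hairpin in the tumor cells, had 3 UMIs in the Ctrl cells and 14 in the KD cells.

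The 3 markers that chose the cells were unevenly shared. Adgre4 was found in 32 of 34 Ctrl and 74 of 85 KD cells (304 and 227 CPM), Treml4 in 28 and 74 cells (165 and 210 CPM), and Ace in 18 and 37 cells (122 and 80.0 CPM). Adgre4 with Treml4 and no Ace was the commonest combination, in 16 Ctrl and 48 KD cells. All 3 markers were found in 10 and 15 cells. In T cells, which should lack these genes, a UMI was found in 0.107% and 0.377% of cells for Ace, 0.25% and 0.755% for Adgre4, and 1.04% and 1.26% for Treml4.

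The label was checked with 18 markers of patrolling monocytes that the rule did not use, against classical monocytes of the same library (590 Ctrl and 369 KD cells with Csf1r, Ly6c2 and Vcan or Ccr2, and none of the 3 markers). A gene was counted as higher when its log2 ratio was at least 1 in both libraries, which held for 1.43% of the 8735 genes with at least 50 UMIs, and 10 of the 18 markers passed. Their median log2 ratio over all 18 was 1.33 in Ctrl and 1.37 in KD, against 0.00 and -0.01 over all genes. Against C1q macrophages (787 and 610 cells with Csf1r and all 3 C1q chains), 1.86% of 10150 genes were higher and 4.04% lower in the selected cells, and 11 of 17 markers tested were higher.

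Itgal, the alpha chain of the integrin LFA-1 with which these monocytes hold to the endothelium, reached 413 (Ctrl) and 447 CPM (KD) against 165 and 136 CPM in classical monocytes, log2 ratios of 1.32 (1.00 to 1.63) and 1.72 (1.50 to 1.93). Gngt2, a G protein gamma subunit, had 699 and 670 CPM against 275 and 263 CPM, log2 ratios of 1.35 (1.10 to 1.59) and 1.35 (1.18 to 1.52). Dusp16, a phosphatase of MAP kinases, had 408 and 314 CPM against 120 and 115 CPM. The receptor Cd300e stood furthest apart, at log2 4.44 (3.22 to 5.68) and 5.19 (3.49 to 7.56), on 14 and 26 UMIs. Ear2, a ribonuclease of myeloid cells, followed at 3.80 and 3.50, with 91.2 and 176 CPM in the selected cells.

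Lipid-handling genes were also higher than in classical monocytes, in 6 of 13 tested. They were the fatty acid carriers Fabp4 (log2 3.77 and 2.91) and Fabp5, the scavenger receptor Cd36 (1.64 and 2.02), the nuclear receptors Pparg (3.92 and 2.37) and Nr1h3, and the lipase Lpl. With both groups restricted to cells under 10 C1q UMIs per 10000, 4 of 12 were higher (Fabp4, Fabp5, Cd36 and Pparg). Of the 59 Ctrl UMIs of Lpl, 20 were in 1 cell that also held liver endothelial UMIs. Other genes at the top of the comparison were Adgrl3, an adhesion receptor (3.95 and 4.72), Gdf15, a stress-induced cytokine (3.02 and 3.60), Ptgs1, which makes prostaglandins (2.49 and 2.57), and Hes1, a target of Notch signalling (1.76 and 2.37). Gdf15 and Ptgs1 lay mainly in selected cells with C1q at or over that limit. Gdf15 had 209 and 238 CPM there against 0 and 29.0 CPM in the cells under it, and Ptgs1 66.8 and 109 CPM against 18.1 and 7.25 CPM. At the bottom were the neutrophil collagenase Mmp8 (0 and 1 UMIs in the selected cells) and the chemokine Cxcl11 (-3.87 and -3.46, on 1 and 2 UMIs). The granule protease Prtn3 (-3.01 and -2.82, on 1 and 10 UMIs) and Spp1, which encodes osteopontin (-1.71 and -2.94, on 10 and 12 UMIs), were there too. On so few UMIs the Ctrl intervals were wide, from -9.18 to -1.38 for Cxcl11 and from -8.32 to -0.51 for Prtn3. Of the 8735 genes, 1.75% were lower by the same rule.

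Several defining markers did not separate the cells. Nr4a1, the transcription factor these monocytes depend on, had 343 and 354 CPM against 266 and 302 CPM in classical monocytes, log2 ratios of 0.37 and 0.23. The fractalkine receptor Cx3cr1 had log2 ratios of 0.79 and 0.79 with only 95.6 and 67.2 CPM. The sialomucin Spn (CD43) had 3 UMIs in Ctrl and 19 in KD, with log2 ratios of 0.37 and 2.00. The Fc receptor Fcgr4 lay at -0.02 and 0.01, and Cebpb at 0.05 and -0.36.

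**Figure D1:**
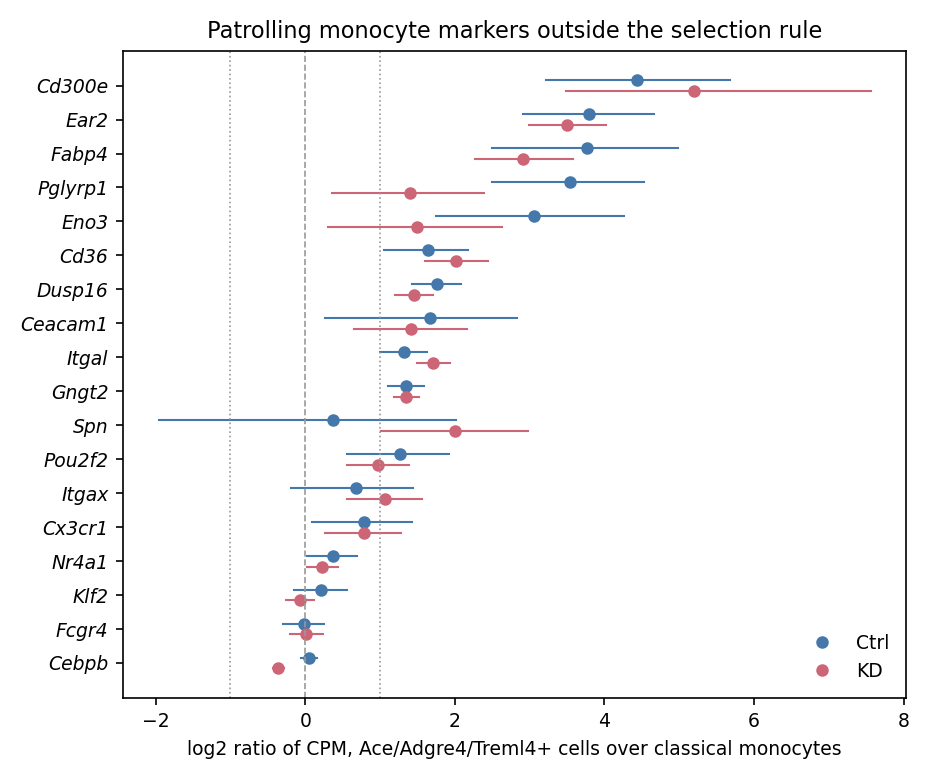
Each of 18 patrolling monocyte markers that the selection rule did not use is drawn by its log2 ratio of CPM in Ace/Adgre4/Treml4+ cells over classical monocytes, for Ctrl (blue) and KD (red), with 95% counting intervals and dotted lines at a log2 ratio of 1 and -1. Of the 18, 10 markers, from Cd300e at the top to Gngt2, lie past 1 in both libraries, and Nr4a1, Klf2, Fcgr4 and Cebpb lie near 0.

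After thinning every cell to 1500 UMIs, Gngt2 was found in 61.8% of Ctrl and 51.8% of KD selected cells, against 33.2% and 32.0% of classical monocytes and 3.16% and 4.12% of T cells. Without thinning, the shares with a Gngt2 UMI were 94.1% and 92.9% of the selected cells, 75.9% and 79.4% of classical monocytes and 13.5% and 15.7% of T cells. Ear2 was found in 3 of 34 Ctrl and 17 of 85 KD thinned selected cells, 1.02% and 1.63% of classical monocytes, and 0.0360% and 0.190% of T cells, and in 20.6% and 42.4%, 3.56% and 6.78%, and 0.179% and 0.881% without thinning. No selected cell was too shallow to thin, while 3 classical monocytes and 20 T cells of Ctrl and 12 T cells of KD were left out.

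The cells were mixed in their C1q level, which the rule did not use. The summed level of C1qa, C1qb and C1qc ran from 0 to 184 per 10000 in Ctrl and from 0 to 177 in KD, with medians of 2.07 and 10.9, and it was 0 in 14 and 25 cells. A limit of 10 per 10000, set after these values were seen, put 24 of 34 Ctrl cells (70.6%, 52.5 to 84.9) and 42 of 85 KD cells (49.4%, 38.4 to 60.5) in a C1q-low range. The difference was -21.2 percentage points (-39.2 to 0.01). In Ctrl no cell lay between 5.75 and 48.8, whereas in KD the levels ran on, with 13 cells between 5 and 20 against 1 in Ctrl. These are ranges of one measure and not cell types. The medians of the C1q-high cells, 88.9 and 66.2, compare with 81.6 and 85.2 in the C1q macrophages.

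C1q-low cells were commoner among cells with Ace. They made up 15 of 18 Ctrl cells with an Ace UMI (83.3%, 58.6 to 96.4) and 9 of 16 without (56.3%, 29.9 to 80.2). In KD they made up 27 of 37 with Ace (73.0%, 55.9 to 86.2) and 15 of 48 without (31.3%, 18.7 to 46.3). Among cells with all 3 markers they were 9 of 10 in Ctrl and 13 of 15 in KD. The intervals of cells with and without Ace overlap in Ctrl and do not in KD, but cells of 1 library are not replicates. Median depth was 5212.5 UMIs in Ctrl and 6077 UMIs in KD cells with Ace. In cells without Ace it was 4717.5 and 8514 UMIs, and the part of depth in this difference was not tested.

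**Figure D2:**
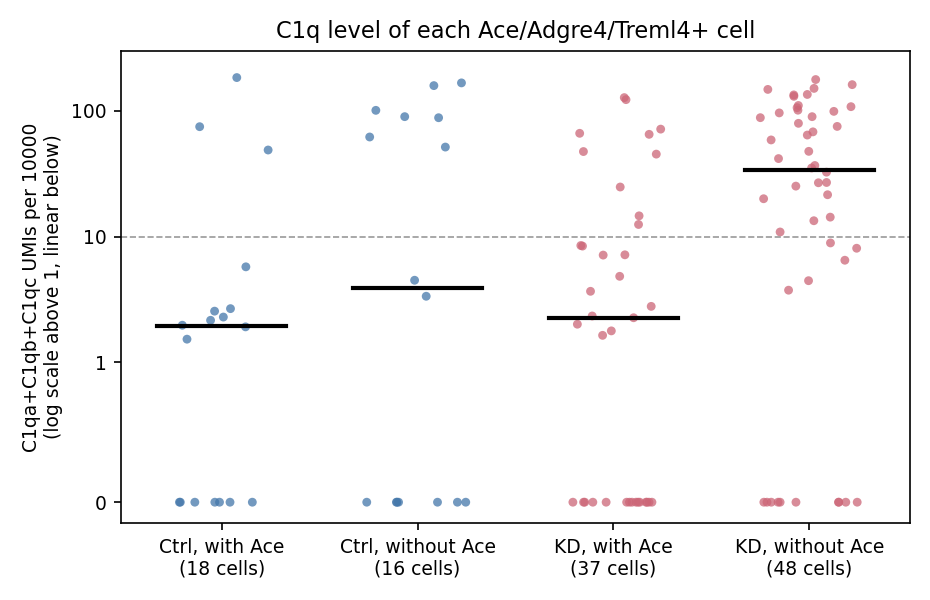
Each point is 1 Ace/Adgre4/Treml4+ cell, placed by its summed C1qa, C1qb and C1qc UMIs per 10000 (log scale above 1, linear below) and split by library and by whether it held an Ace UMI, with bars at the medians and a dashed line at 10. Most cells with Ace lie under the line in both libraries, and the KD cells without Ace, with a median of 33.8, lie mostly above it.

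Against C1q-high cells of the same library, 2.89% of 3077 genes were higher in the C1q-low cells in both libraries and 3.48% were lower. Plac8, a gene of blood monocytes, had 10732 CPM in C1q-low Ctrl cells and 5417 CPM in C1q-low KD cells against 960 and 2038 CPM in the C1q-high cells. Nr4a1 had 580 and 515 CPM against 125 and 250 CPM. Dusp16 had 643 and 598 CPM against 192 and 130 CPM. Of 13 patrolling markers tested, 4 were higher in the C1q-low cells (Nr4a1, Fabp4, Pou2f2 and Dusp16) and Cx3cr1 was lower, at 45.3 and 25.4 CPM against 142 and 94.4 CPM. Pparg and Pecam1 were higher as well. Of 7 classical monocyte markers tested, 4 were higher in the C1q-low cells (Plac8, Vcan, Hp and Ifitm6).

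The C1q-high cells carried macrophage genes beyond those that set the limit. Apoe and Mrc1 (the mannose receptor) were higher in them in both libraries, as were the receptors for dying cells Mertk and Axl, the high-affinity Fc receptor Fcgr1, the proteases Ctsl and Lgmn, and the chemokines Ccl2, Ccl7, Ccl8, Ccl12, Ccl24 and Cxcl16. Ccl8 had only 48 UMIs in all Ctrl and 3 in all KD selected cells, and for Ccl8 and Ccl12 alike most Ctrl UMIs were in 1 cell. Mrc1 had 0 and 50.7 CPM in the C1q-low cells against 292 and 238 CPM, but 19 of its 35 Ctrl UMIs were in 1 cell of 21118 UMIs that also held liver endothelial UMIs. Median depth was 4564 and 5742 UMIs in the C1q-low cells and 11387 and 9834 UMIs in the C1q-high cells, and the part of this depth in the split was not tested.

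Within the C1q-low range the patrolling markers still stood apart from classical monocytes of the same range. Of 16 markers tested, 9 were higher in both libraries (Itgal, Fabp4, Ear2, Gngt2, Pou2f2, Cd36, Ceacam1, Pglyrp1 and Dusp16), against 1.93% of 6523 genes, and the median of the list was 1.43 and 1.83. The survival gene Bcl2, Hes1 and the endothelial adhesion molecule Pecam1 were higher too. Of 15 chemokines tested, 5 were lower (Ccl2, Ccl12, Ccl24, Cxcl1 and Cxcl3), as was Fcgr1, against 3.51% of all genes.

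Markers of other cells were then counted. The 11 classical monocyte markers summed to 6369 CPM in Ctrl and 4670 CPM in KD, against 6911 and 8216 CPM in classical monocytes. In C1q-low cells they stood at 11809 and 7247 CPM, against 10644 and 11878 CPM in classical monocytes of that range. These sums are mostly 1 gene, since Plac8 held 1300 of the 1466 UMIs in Ctrl and 2359 of the 3268 in KD. Between KD and Ctrl, 3 of 7 markers tested (Vcan, Chil3 and Fn1) were higher and 0 lower, with a median log2 ratio of 0.68. Over all genes, 4.22% were higher. Against all classical monocytes, 2 of 10 tested were lower, Mmp8 and Vcan, a gene of the comparison's rule, where 1.75% of all genes were. The medians of the list were -0.78 and -1.64. In Ctrl and KD, the 7 T and NK cell markers summed to 17 and 45 UMIs in 7 and 15 cells (0 to 23.2 and 0 to 18.1 per 10000), the 7 neutrophil markers to 11 and 34 UMIs (0 to 4.50 and 0 to 8.88), the 4 B cell markers to 1 and 1, and the 4 hepatocyte markers to 0 and 4. The 6 Kupffer cell markers had 9 UMIs in 4 Ctrl cells and 161 in 12 KD cells, with Vsig4 and Timd4 at 0 in both. Summed, they stood at 39.1 and 230 CPM, against 2.81 and 8.13 CPM in classical monocytes and 44.5 and 97.9 CPM in all other filtered cells. The scavenger receptor Marco and the secreted protein Cd5l were higher than in classical monocytes in both libraries, but on only 1 and 4 UMIs in Ctrl. Of the 161 KD UMIs, 159 were in C1q-high cells. Marco had 89 UMIs in KD, 66 of them in 1 cell, and Cd5l 67, 4 of them in that cell. The 6 liver endothelial markers had 52 UMIs in Ctrl, 51 of them in 1 cell of 21118 UMIs, and 12 in KD. This Ctrl cell also held 38 of the 69 Vcam1 UMIs and 36 of the 58 Slc40a1 UMIs of Ctrl.

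As a share of filtered cells, the Ace/Adgre4/Treml4+ cells made up 0.346% of Ctrl (0.240 to 0.484) and 0.835% of KD (0.667 to 1.03). The shares differed by 0.488 percentage points (0.272 to 0.711), or 2.41 times (1.60 to 3.70). The direction was the same among cells with a Csf1r UMI, at 1.17% and 2.88%, and among cells with S100a8 and S100a9 under the limit, at 0.370% and 1.10%. Of these cells and classical monocytes together they were 5.45% (3.80 to 7.53) in Ctrl and 18.7% (15.2 to 22.6) in KD, while classical monocytes were 6.01% and 3.62% of filtered cells.

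The size of this difference rested on the rule, and its direction did not hold after thinning. When Ly6c2 UMIs were allowed there were 106 Ctrl and 130 KD cells, and the log2 ratio of the shares was 0.24 (-0.14 to 0.62) in place of 1.27. With all 3 markers required it was 0.53 (-0.72 to 1.85), on 10 and 15 cells. When the rule was applied after thinning every cell to 1500 UMIs, 11 Ctrl and 8 KD cells were left, and the log2 ratio was -0.54 (-2.06 to 0.91). C1q-low cells alone were 0.245% of Ctrl and 0.412% of KD cells, a log2 ratio of 0.75 (-0.0031 to 1.54), and C1q-high cells 0.102% (10 cells) and 0.422% (43 cells), a log2 ratio of 2.05 (1.04 to 3.21). How much of the higher share came from the greater depth of the KD cells was not tested beyond the thinned value.

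**Figure D3:**
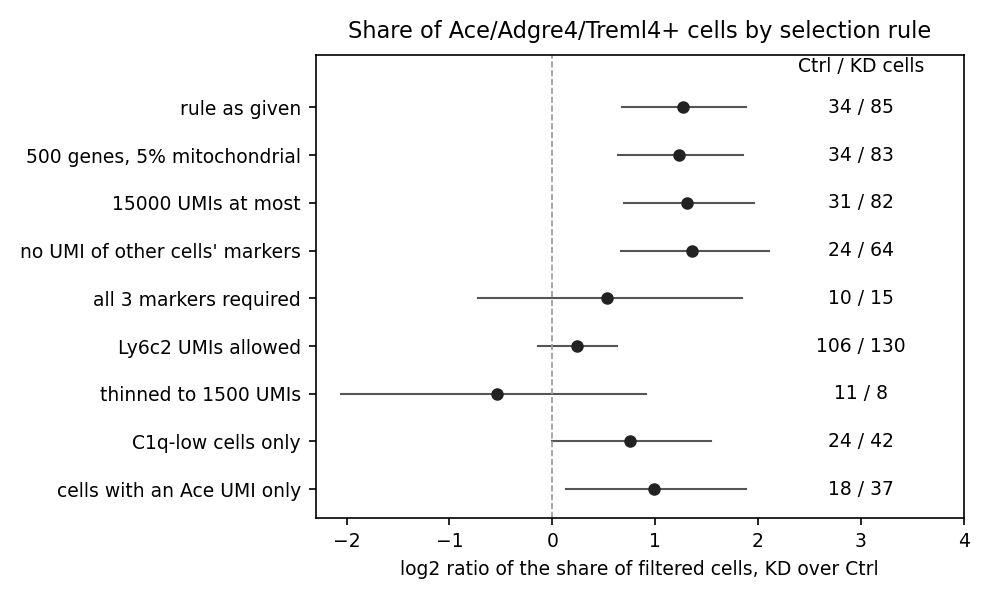
The log2 ratio of the share of filtered cells, KD over Ctrl, is drawn for the rule as given and 8 alternatives, with 95% counting intervals and the number of Ctrl and KD cells at the right. The ratio lies at 1.23 or above for the rule and the 3 alternatives that filter cells, and its interval reaches 0 or below when all 3 markers are required, when Ly6c2 UMIs are allowed, after thinning and for C1q-low cells.

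KD and Ctrl were then compared within the selected cells. Among 3077 genes with at least 50 UMIs, 130 (4.22%) had a log2 ratio of KD over Ctrl of at least 1 and 90 (2.92%) of at most -1. With TMM scaling, which moved all ratios up by 0.13, these were 171 and 61, and with median-of-ratios scaling, which moved them up by 0.10, 157 and 68. The same 2 libraries gave the ratios of every cell group named below, so that these are not independent. In classical monocytes 1.31% of 8402 genes were higher and 1.58% lower, in C1q macrophages 1.43% and 3.07% of 9969, and in all other filtered cells 6.63% and 4.1% of 17615.

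The genes that interferon-gamma induces were lower in KD. Of a list of 16, 11 had enough UMIs, of which 7 were lower and 1 higher, and their median log2 ratio was -1.18 against -0.01 over all genes. The log2 ratio of their summed level was -1.07 (-1.19 to -0.95). In single cells the summed level had a median of 28.2 per 10000 in Ctrl (0 to 170) and 13.9 in KD (0 to 93.1), so that the cells of the libraries overlapped widely. The same list had a median of -1.16 in classical monocytes, with 11 of 15 genes lower, and -0.90 in C1q macrophages, with 6 of 15 lower.

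Cxcl9 and Cxcl10 are chemokines that draw T cells through the receptor Cxcr3. Cxcl9 had 198 UMIs in 16 Ctrl cells and 224 UMIs in 23 KD cells, or 860 and 320 CPM, a log2 ratio of -1.43 (-1.71 to -1.14). Cxcl10 had 163 UMIs in 17 Ctrl cells and 210 UMIs in 27 KD cells, or 708 and 300 CPM, a log2 ratio of -1.24 (-1.54 to -0.93). For both genes 53 to 57 UMIs came from the 1 highest cell of each library. In classical monocytes the ratios were -0.90 and -1.37, and in all other filtered cells -1.29 and -1.45.

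The guanylate-binding proteins and related GTPases act inside cells against microbes. Gbp2 had 504 and 236 CPM, a log2 ratio of -1.10 (-1.45 to -0.74). Gbp5 had 222 and 61.4 CPM (-1.85, -2.47 to -1.24) and Gbp4 182 and 47.2 CPM (-1.95, -2.66 to -1.26). Gbp7 (-1.18) and Iigp1 (-1.33) were lower as well. Gbp3 was not past the limit, at -0.27 (-0.93 to 0.43), nor were the transcription factor Irf1, at -0.98 (-1.45 to -0.50), and Cd274, which encodes PD-L1, at -0.67 (-0.93 to -0.40). Ciita, the master regulator of MHC class II, went the other way, from 39.1 to 116 CPM (1.57, 0.57 to 2.75), on 9 and 81 UMIs.

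The summed level was lower by more in the C1q-low cells than in all selected cells, but not every gene followed this. All 6 genes tested there (Cxcl9, Cxcl10, Gbp2, Gbp5, Cd274 and Irf1) were lower, where 3.8% of 1369 genes were lower and 5.62% higher, and the log2 ratio of the list's summed level was -1.55 (-1.72 to -1.38). Cxcl10 had a log2 ratio of -2.20 (-2.63 to -1.79) in them and 0.61 in the C1q-high cells, Gbp2 -1.70 (-2.15 to -1.26) and 0.64, and Gbp5 -3.01 (-4.04 to -2.09) and -0.09. Cxcl9 was lower in both ranges, at -1.30 (-1.81 to -0.79) in the C1q-low cells and -1.57 (-1.92 to -1.23) in the C1q-high cells. Only 10 Ctrl cells were C1q-high, where 4.03% of 1859 genes were lower and 7.53% higher, and the difference between the ranges was not tested. In single cells the median was 29.6 per 10000 in Ctrl and 12.4 in KD in the C1q-low range, and 26.0 and 15.5 in the C1q-high range. The highest C1q-low Ctrl cells stood at 170, 164 and 133 per 10000, against an upper quartile of 66.6, so that a few cells weighed on the summed Ctrl level. In the whole set the direction of Gbp2 turned to 0.10 when all 3 markers were required and that of Gbp7 to 0.031 after thinning.

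**Figure D4:**
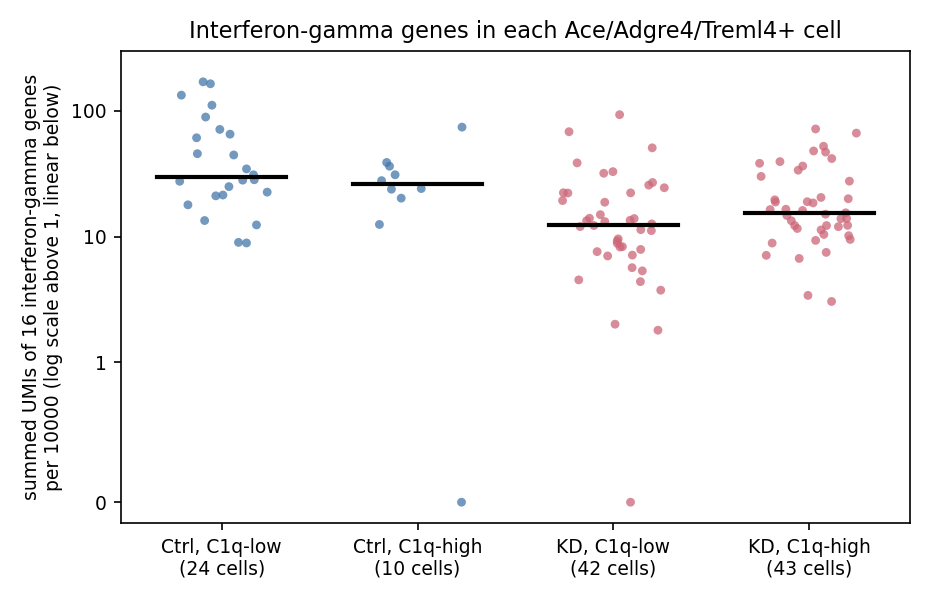
Each point is 1 Ace/Adgre4/Treml4+ cell, placed by the summed UMIs of 16 interferon-gamma genes per 10000 (log scale above 1, linear below), with bars at the medians. The medians are 29.6 and 26.0 in the C1q-low and C1q-high Ctrl cells and 12.4 and 15.5 in the KD cells, and the points of all 4 groups overlap.

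To show what these genes have in common, the 300 bases around each transcription start (250 before to 50 after, RefSeq, GRCm38.p6) were searched on both strands for the interferon-stimulated response element (ISRE, GAAA, any 2 bases and GAAA) and the gamma-activated site (GAS, TTCNNNGAA). Promoters were given for 11 of the 16 genes. The ISRE letters were found in 8 of the 11 (Cxcl10, Gbp2, Gbp3, Gbp5, Gbp7, Irgm1, Igtp and Socs1), against 3.99% of all 27025 genes. The GAS letters were found in 4 (Gbp5, Gbp7, Igtp and Irf1), against 9.55%. Cxcl9 and Cd274 held neither in this window. The list was chosen as genes that interferon-gamma induces, so matches above the share of all genes are no result about KD. Gbp4 and Iigp1, both lower in KD, were not among the 11 with a promoter. Gbp3, Irgm1, Igtp and Socs1, which held the ISRE letters, were not among the 7 genes lower in KD. Stretches of 3 promoters are shown 5′ to 3′ on the strand of the gene with the matches in capitals, where TTTC, any 2 bases and TTTC is the ISRE read on the opposite strand. A match of letters is not evidence that a factor was bound.
Cxcl10, bases -243 to -174 from the start: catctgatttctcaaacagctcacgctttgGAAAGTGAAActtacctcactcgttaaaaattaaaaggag
Gbp2, bases -89 to -20: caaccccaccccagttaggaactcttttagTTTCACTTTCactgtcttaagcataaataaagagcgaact
Gbp7, bases -136 to -14, with 2 GAS matches before the ISRE: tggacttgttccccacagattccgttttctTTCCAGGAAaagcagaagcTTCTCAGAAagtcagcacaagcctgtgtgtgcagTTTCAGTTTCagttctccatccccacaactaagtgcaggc

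The type I interferon genes, 7 of which had enough UMIs, had a median log2 ratio of -0.51. Isg15, a ubiquitin-like protein that interferons induce, stood at -0.51 (-0.99 to -0.02) in all selected cells and at -1.24 (-1.96 to -0.52) in the C1q-low cells. Ifit1 and Ifit2 had 12 and 14 UMIs in Ctrl and 3 and 6 in KD, which is too few for the count. Irf8, a transcription factor of monocytes and dendritic cells, was lower in KD, from 465 to 184 CPM (-1.33, -1.72 to -0.95), with -1.35 in C1q-low cells and -0.81 in classical monocytes. The interferon-induced genes Ifi47 (-1.89, 56 and 46 UMIs) and Zbp1 (-1.39, 63 and 73 UMIs), outside these lists, were among the 15 lowest, as were Fgl2 (-2.01), Ly6a (-1.28) and Tmsb10 (-1.28, 2359 and 969 CPM).

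Apoe, the apolipoprotein that carries lipids out of macrophages, was higher in KD. It had 374 UMIs in 23 of 34 Ctrl cells and 4254 UMIs in 72 of 85 KD cells, or 1625 and 6078 CPM, a log2 ratio of 1.90 (1.75 to 2.06). Single Ctrl cells had 0 to 164 Apoe UMIs per 10000 with a median of 4.59, and single KD cells 0 to 410 with a median of 19.6. The ratio was 1.39 (0.96 to 1.84) in the C1q-low cells, where Apoe had 462 and 1210 CPM. It was 0.96 in classical monocytes, 1.29 in C1q macrophages and 1.25 in all other filtered cells. The cholesterol exporters Abca1 (1.24, 0.62 to 1.92) and Abcg1 (1.02, 0.28 to 1.86) were higher and Pparg was lower (-1.19, -1.77 to -0.60), of 13 lipid-handling genes tested. Abcg1 was at -0.25 when all 3 markers were required.

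The Ccr1-binding chemokines Ccl9 and Ccl6 were higher in KD. Ccl9 had 18 UMIs in 9 Ctrl cells and 207 UMIs in 56 KD cells, or 78.2 and 296 CPM, a log2 ratio of 1.92 (1.22 to 2.70). Ccl6 had 395 and 974 CPM, a log2 ratio of 1.30 (0.98 to 1.63). In C1q-low cells they stood at 1.60 and 1.13, and in classical monocytes at 0.99 and 0.72. Ccl9 stood at 1.52 in C1q macrophages and at 1.52 in all other filtered cells. Of the 15 chemokines tested, Cxcl1 was also higher (2 and 63 UMIs, in 1 and 9 cells). Besides Cxcl9 and Cxcl10, the monocyte attractants Ccl7 (63 and 10 UMIs), Ccl8 (48 and 3) and Ccl12 (33 and 17) were lower, but 38 of the 48 Ctrl UMIs of Ccl8 and 25 of the 33 of Ccl12 were in 1 cell. Without cells that held a UMI of other cells' markers, Ccl12 stood at 0.10 and Ccl7 at -2.36.

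Of 11 cytokine genes tested, 6 were higher in KD (Il1a, Tnf, Il6, Il10, Osm and Tnfsf9), with a median of 1.03 for the list, and in the C1q-low cells 0 of 5 were. Tnf went from 139 to 330 CPM (1.25, 0.71 to 1.83), with 75 of its 231 KD UMIs in 1 cell, and stood at 0.34 (-0.32 to 1.03) in C1q-low cells. Without cells that held a UMI of other cells' markers it was at 0.19. Il6 had 3 UMIs in 2 Ctrl cells and 113 UMIs in 17 KD cells, of which 14 UMIs were in C1q-low cells. Il1a went from 65.2 to 224 CPM (1.78, 1.02 to 2.65) and stood at 0.58 (-0.41 to 1.69) in C1q-low cells and at -1.54 in classical monocytes. Il1b, the most abundant, had 2815 and 3678 CPM, a log2 ratio of 0.39 (0.26 to 0.51). After thinning, Tnf stood at -0.59 and Osm at -1.79, and Osm at -0.25 with Ly6c2 UMIs allowed.

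**Figure D5:**
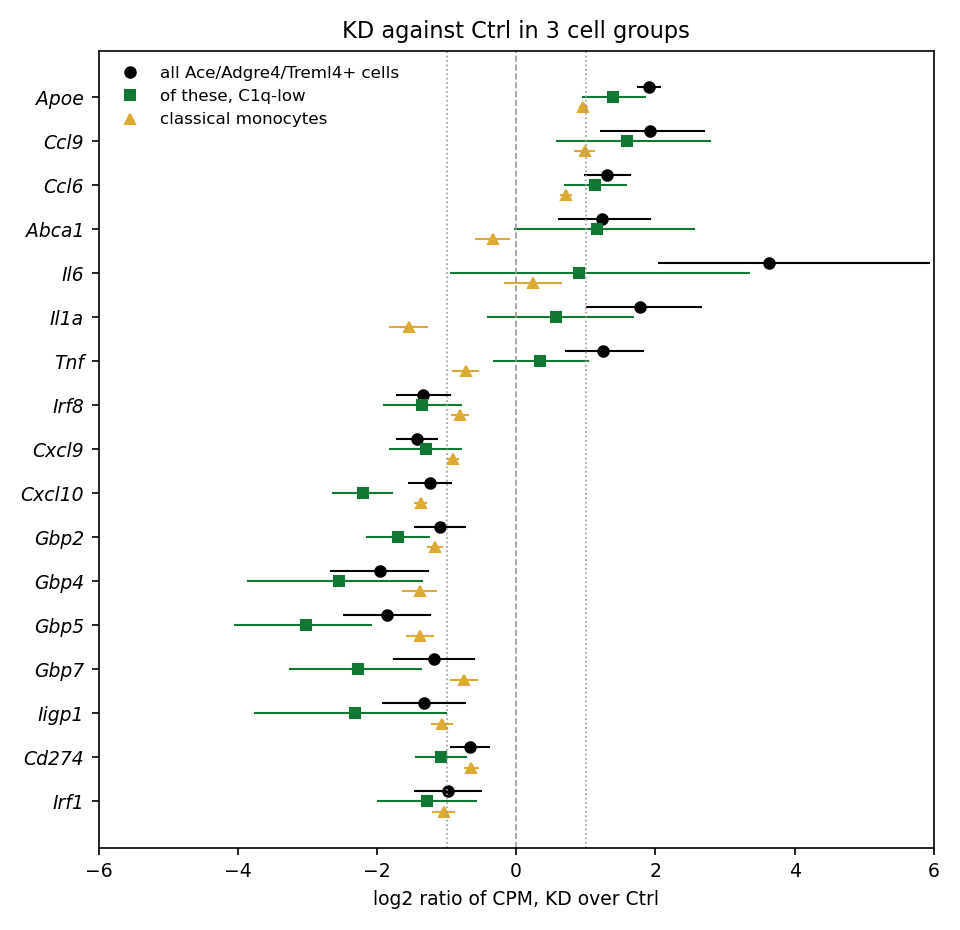
Log2 ratios of CPM, KD over Ctrl, are drawn for 17 genes in all Ace/Adgre4/Treml4+ cells (black circles), in the C1q-low cells among them (green squares) and in classical monocytes (yellow triangles), with 95% counting intervals and dotted lines at 1 and -1. Interferon-gamma genes and Irf8 lie below 0 in all 3 groups, Apoe, Ccl9 and Ccl6 lie above 0 in all 3, and Tnf and Il1a lie above 0 in the selected cells and below 0 in classical monocytes.

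Among the other genes at the top of the comparison, Dapk1, a kinase linked to cell death (2.57, 1.61 to 3.72), Fkbp5, a glucocorticoid-induced chaperone (2.07), and Acp5, a phosphatase of macrophages and osteoclasts (1.94, 1.09 to 2.93), were also higher in the C1q-low cells, at 4.23, 3.20 and 3.54, where Ctrl had only 1, 2 and 1 UMIs of them. Fn1, fibronectin, had 19 and 210 UMIs (1.86), and Chil3 22 and 236 UMIs (1.82, against 2.80 in classical monocytes). Saa3, an acute-phase gene, had 4 and 155 UMIs, of which 70 were in 1 KD cell, and it stood at -0.15 in C1q-low cells. Adgrl3 (1.83) stood at 0.82 without cells that held a UMI of other cells' markers and at -1.25 when all 3 markers were required.

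In all selected cells, none of 13 patrolling markers tested passed the limit between KD and Ctrl, with a median of 0.05, and their summed level was at -0.11 (-0.20 to -0.02). Nr4a1 was at 0.05 (-0.32 to 0.43). In the C1q-low cells 2 of 11 passed, Ear2 at 1.51 (0.49 to 2.70) and Cd36 at 1.12 (0.08 to 2.33), with a median of -0.01. None of 6 Fc receptor genes, 16 adhesion and migration genes and 12 immediate early genes passed in all selected cells, while Fcgr2b, the inhibitory Fc receptor, stood at 1.45 (0.73 to 2.25) in the C1q-low cells. Both Kupffer cell markers with enough UMIs were higher in KD. Cd5l stood at 2.46 (1.04 to 4.38, 4 and 67 UMIs) and Marco at 4.87 (1 and 89 UMIs). The log2 ratio of the summed level of all 6 Kupffer cell markers was 2.56 (1.60 to 3.71). It rested on few cells, since 66 of the 89 KD UMIs of Marco were in 1 cell. No UMI of the 6 markers was found in 30 of 34 Ctrl and 73 of 85 KD cells. Their summed level was also higher outside the selected cells, where all other filtered cells stood at 44.5 (Ctrl) and 97.9 CPM (KD). Of 7 MHC class II genes only Ciita passed, and the summed level of the list was at 0.06 (0.01 to 0.11). Of 19 survival and transcription factor genes, Cebpa was higher (1.07, 0.10 to 2.20) and Irf8 lower, and of 5 SLAM family genes Cd84 was higher (1.17, 0.32 to 2.14).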

How the data were processed

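RNA of single CD45+ cells was captured in droplets with a 3' kit, as 1 library per group. The deposited files hold raw UMI counts, 1 value for each gene in each barcode, and per the labels the authors ran Cell Ranger 7.1.0. The submitters' processing notes also name Seurat 5.1.0, R 4.4.1 and GRCm39, and the annotation version is not given in the sources used here. The reference at hand was GRCm38.p6, so no coordinates are given.

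A cell passed the filter with 200 to 6000 genes, no more than 30000 UMIs and a mitochondrial share up to 10%. No doublet caller was run. Counts were summed over the cells of a group and library in Python 3.11.15 (numpy 2.4.6, scipy 1.17.1, pandas 2.3.3). Shares have exact Clopper-Pearson intervals and log2 ratios of CPM exact conditional binomial intervals. Genes with at least 50 UMIs were counted as higher or lower past a log2 ratio of 1 or -1. The selection genes, Vcan and Ccr2 against classical monocytes, and the C1q chains against macrophages are no results.

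The comparison cells had 0 UMIs of Ace, Adgre4 and Treml4 and met the same limits as the selected cells, with Ly6c2 required in classical monocytes. T cells had Cd3e and Cd3g UMIs and no Csf1r UMI. The members of the group and the 35 gene lists were chosen with earlier results of these data known. Any listed gene may be named, with the 15 highest and 15 lowest log2 ratios among genes with at least 100 UMIs. Ratios were ranked with 0.5 CPM added. Between KD and Ctrl, genes under 0.5 times the CPM of all other filtered cells were left out of the ranking. The rule was written for classical monocytes and used against macrophages in the same way. The C1q limit and the split by Ace were set after the values were seen. The ratios and intervals were tested on simulated data. These held counting error only, as the intervals assume, and no spread between cells. They therefore do not show how the intervals behave for genes with many UMIs in 1 cell. The alternatives are given in the closing section.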

Additional observations from a re-analysis of the deposited data

How the results depend on the processing

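The log2 ratio of the share was 1.27, 0.53 with all 3 markers required, 0.24 with Ly6c2 UMIs allowed and -0.54 after thinning. Between KD and Ctrl, 130 genes were higher and 90 lower. These were 30 and 18 with all 3 markers (524 genes tested), 30 and 31 after thinning (332), 77 and 52 in C1q-low cells (1369), 46 and 59 in cells with Ace (1393), 778 and 583 at 10 UMIs or more (7487) and 14 and 9 at 200 or more (711). Of the interferon-gamma genes 7 of 11 were lower, 3 of 4 with all 3 markers, 2 of 3 after thinning, 3 of 5 in cells with Ace and 3 of 4 at 200 UMIs or more. Fewer cells or UMIs left fewer genes to test.

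Against classical monocytes, 125 (1.43%) of 8735 genes tested were higher and 153 (1.75%) lower. These were 252 and 874 with all 3 markers, 80 and 89 with Ly6c2 allowed, 211 and 1348 after thinning, 205 and 575 in C1q-low cells, 383 and 768 at 10 UMIs and 50 and 39 at 200 UMIs, where 5 of 12 patrolling markers were higher. The lower genes were 399 in cells with Ace and 238 with each cell weighted equally. Against C1q macrophages, 189 (1.86%) of 10150 genes tested were higher and 410 (4.04%) lower. These were 372 and 1750 with all 3 markers, 377 and 2518 after thinning, 336 and 1295 in C1q-low cells, 397 and 1540 at 10 UMIs and 92 and 99 at 200 UMIs. The lower genes were 645 without cells that held other cells' markers, 865 in cells with Ace and 728 with each cell weighted equally. In both comparisons the UMI limit was on selected and comparison cells together. A gene with 0 UMIs in the selected cells thus counted as lower, which few cells make more likely, as with the 11 Ctrl and 8 KD cells left after thinning. The larger counts therefore do not show larger differences.

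For 55 genes followed between KD and Ctrl, 656 of 667 values under the alternatives kept the sign. The others were Ccl12 at 0.10 without cells that held other cells' markers, Abcg1 at -0.25, Gbp2 at 0.10 and Adgrl3 at -1.25 with all 3 markers, Osm at -0.25 with Ly6c2 allowed, Vcan at -3.14, Tnf at -0.59, Gbp7 at 0.031 and Osm at -1.79 after thinning, and Ptms at 0.53 and Saa3 at -0.15 in C1q-low cells. The causes were not tested. Some of the alternatives could not turn a sign, because every gene followed lay past 1 or -1. The limits of 10 and 200 UMIs left the ratios as they were, and the TMM and median-of-ratios scalings moved them by only 0.13 and 0.10. Each of these settings gave 55 of the values. The C1q and Ace alternatives were chosen after seeing the data. No paired analysis was possible because each group has 1 library, and for the same reason none could be left out.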

Other observations

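Against C1q macrophages, the genes that stood highest in the Ace/Adgre4/Treml4+ cells of both libraries included metabolic and monocyte genes. Hpgd had log2 ratios of 5.24 in Ctrl and 4.35 in KD, the glutathione reductase gene Gsr 3.01 (2.68 to 3.32) and 2.72 (2.52 to 2.92), the haptoglobin gene Hp 3.96 and 2.75, and Plac8 2.18 and 2.00. Nr4a1 was higher here (1.07, 0.72 to 1.40, and 1.14, 0.93 to 1.35), which it was not against classical monocytes. Spic, the transcription factor of iron-recycling macrophages, stood at 2.92 and 3.35 on 6 and 46 UMIs. Slc40a1, the iron exporter ferroportin, stood at 5.58 and 2.33, but 36 of its 58 Ctrl UMIs were in the 1 cell that also held liver endothelial UMIs. Spp1 was lower, at -2.32 and -3.04. Il12b had 0 UMIs in the selected cells of both libraries, against 61 in Ctrl and 53 in KD macrophages. The upper limit of its log2 ratio was 0.72 in Ctrl and -0.88 in KD, so the Ctrl count is too small to show a lower level.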
